A study of Mus musculus with 12 samples.

Results

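The 49 genes described here are the chemokines and chemokine receptors that mouse arrays of sorted bone marrow progenitors could be matched to. They are all genes whose symbol is Ccl, Cxcl, Ccr or Cxcr followed by a digit, together with Cx3cl1, Cx3cr1 and Xcr1; Ccr2, Ccr9 and Cxcl10 are not among them. They make up 49 of the 20284 genes named on the array, and comprise 32 ligands and 17 receptors. The choice used gene names and no measured value.

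Total RNA was measured on 12 one-colour Agilent arrays of cells from C57BL/6 bone marrow. The cells were LSK cells (lineage-negative, Sca-1-positive and c-Kit-positive, the compartment of stem cells and early multipotent progenitors) and granulocyte-macrophage progenitors (GMP), the committed precursors of neutrophils and monocytes. All of them came from recipient mice whose marrow had been rebuilt with fetal liver cells, which were wild-type, Tet2KD/KD (a Tet2 hypomorph, called Tet2 knockdown here), Ezh2-/- (Ezh2-null) or Tet2KD/KDEzh2-/- (double mutant). Further double mutant cells came from mice labelled MDS/MPN, a myelodysplastic and myeloproliferative disease, and from mice labelled RAEB, refractory anaemia with excess blasts. The labels give neither the age of the mice nor how Ezh2 was removed nor how many mice were pooled, and cells of the recipients may remain in a sort. Each of the 6 conditions has 1 array per cell type, so a single condition has no replicate error, and the p-values measure how evenly a difference ran across conditions or cell types, not the spread between mice.

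Chemokines are small secreted proteins that steer the movement of leukocytes. They bind receptors of the G protein-coupled family, which signal through inhibitory G proteins to PI3-kinase, Rac and calcium and so set the direction in which a cell crawls. In bone marrow, CXCL12 from stromal cells holds CXCR4-bearing stem and progenitor cells in place, CXCR2 and its ligands draw neutrophils into the blood, and the CC chemokines of monocytes and macrophages recruit further myeloid cells.

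The scale of every value is the log2 signal of a probe minus the log2 of the 75th percentile of its array, and a log2 difference of 1 is a 2-fold difference. Levels are compared between arrays for 1 gene, never between genes, because probes differ in brightness. A gene counted as measured on an array where the scanner software marked its probe as well above background. By that mark 11 ligands and 4 receptors were measured on all 12 arrays, 4 ligands and 8 receptors on 3 to 11 of them, and 5 ligands and 3 receptors on 1 or 2. Another 12 ligands and 2 receptors were well above background on 0 arrays; they are Ccl1, Ccl8, Ccl11, Ccl20, Ccl22, Ccl26, Ccl28, Cxcl3, Cxcl5, Cxcl13, Cxcl14, Cxcl15, Ccr4 and Xcr1. Between 20 and 26 members were well above background on an LSK array and between 18 and 24 on a GMP array. Of the 49 members, 31 (17 ligands and 14 receptors) were well above background on at least 2 arrays and were tested with limma, as were 13705 genes in all.

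Some facts of the whole series bear on these values. All 8 arrays of mice free of disease lay on slide 1, the LSK arrays with MDS/MPN and RAEB on slide 2 and the GMP arrays with MDS/MPN and RAEB on slide 3, so disease and slide cannot be told apart. The 75th percentile was 369 to 389 on the diseased LSK arrays, 169 to 189 on the diseased GMP arrays and 195 to 275 on the rest, which moves the level at which a dark probe reads. Ccl20, never well above background, read -6.93 on both diseased LSK arrays and -6.08 and -6.10 on the diseased GMP arrays, a gap of 0.84 between cell types that was 0.05 on the other pairs. Tet2 read -3.09 to -0.64 on the 8 arrays that carry the knockdown and 0.12 to 1.57 on the 4 others; Ezh2 read 2.50 to 3.40 on all 12 arrays, so its probe does not check the deletion. Xist was high and Eif2s3y at background on the diseased LSK arrays (Xist 1.35 and 1.63) and the reverse held on the diseased GMP arrays (Eif2s3y 1.51 and 0.82), so these LSK and GMP cells differed in the sex of their source; wild-type and double mutant pairs without disease showed the first pattern in both cell types, and the Tet2 knockdown and Ezh2-null pairs the second. The cell labels fitted the summed signal of their markers, given here as a multiple of the 75th percentile. It was 128 to 183 in LSK and 24.7 to 49.4 in GMP for 8 LSK genes such as Kit and Procr. For 7 GMP genes such as Mpo and Elane it was 281 to 1328 in LSK and 4096 to 6467 in GMP. All 8 LSK genes were called lower in GMP over the 12 arrays, but single ones departed from this on the diseased GMP arrays. Ly6a read 4.64 on the MDS/MPN GMP array and 4.05 on the MDS/MPN LSK array, against 2.49 to 3.58 in GMP without disease. Flt3 read 4.58 on the RAEB GMP array, against -0.25 to 1.59 in GMP without disease.

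**Figure D1:**
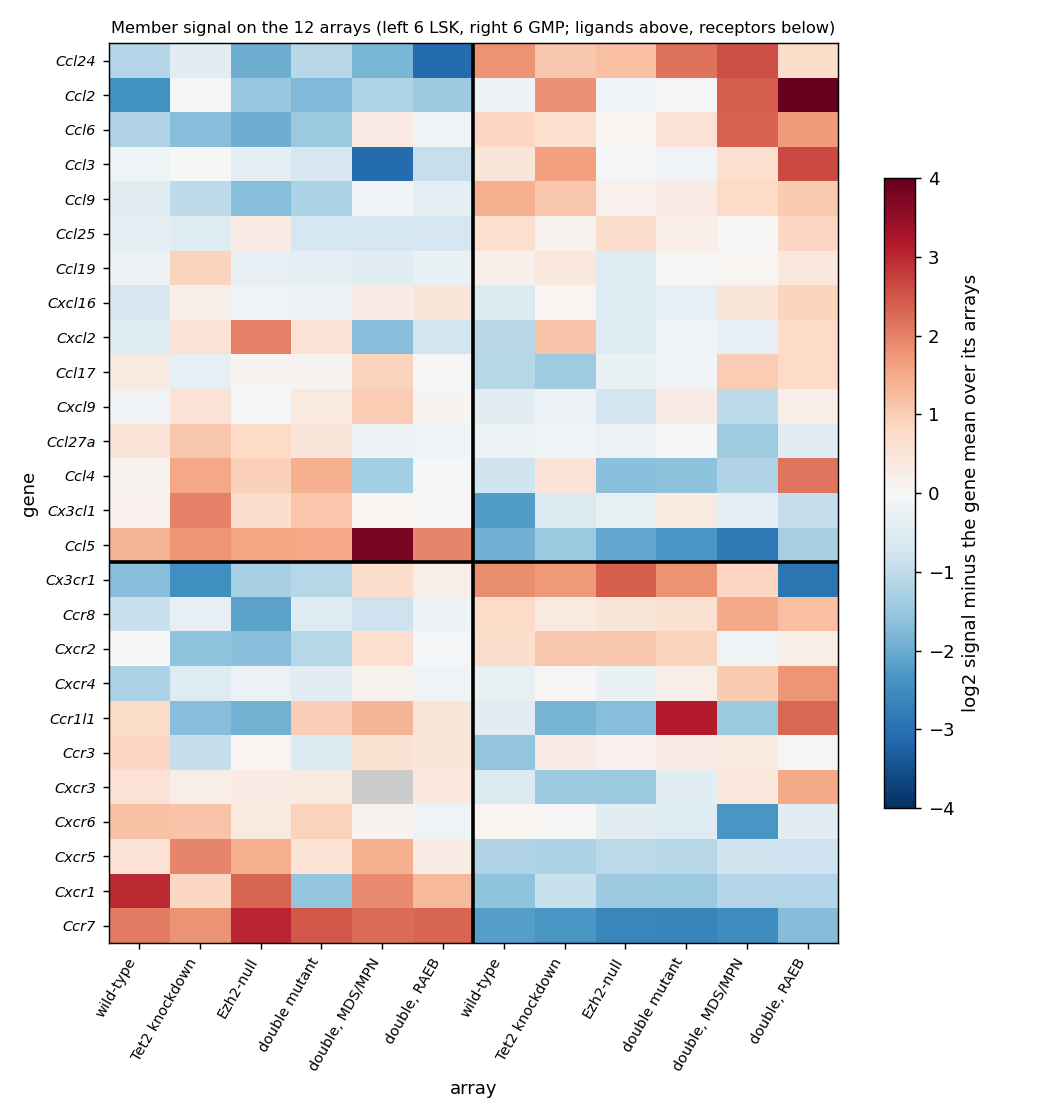
Signal of members well above background on at least 3 arrays, one column per array and one row per gene; the colour is the log2 signal minus the mean of that gene, the left 6 columns are LSK and the right 6 GMP, and the grey cell is the Cxcr3 spot left out as an outlier. Ccl24, Ccl2, Ccl6 and Ccl9 are redder in GMP and Ccl5 and Ccr7 redder in LSK, while Cx3cr1 turns blue on the GMP array with RAEB.

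GMP and LSK were compared first, to ask which chemokines and receptors differ between committed and early progenitors. Arrays were paired by condition. In the MDS/MPN and RAEB pairs the cell types also differed in slide and in the sex of their source. Across the 6 pairs, GMP had more Ccl24, Ccl2, Ccl6, Ccl3, Ccl9 and Ccl25 and more of the receptors Ccr8 and Cxcr4. LSK had more of the ligands Ccl5, Cx3cl1 and Ccl27a and of the receptors Ccr7, Cxcr1, Cxcr5 and Cxcr6. In all, 16 of the 31 members tested were called, 8 higher and 8 lower in GMP, at an adjusted p under 0.05. Over all genes tested the same call was made for 44.6% (25.7% higher and 18.9% lower), so the members' share lay near that of any gene. The median difference was -0.17 over the 31 members and 0.16 over all genes. Among the called members, Ccr7, Cxcr1 and Cxcr5 were tested because of LSK arrays alone, and Ccl24 because of GMP arrays alone. Among the others, Cxcl12, Cxcl17 and Ccr3 were tested because of LSK arrays alone, and Ccr10 because of GMP arrays alone. For all members tested in this way, signal in the cell type that let them in was set against background in the other. Their p-values in this comparison are not separate evidence of a difference.

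Ligands higher in GMP are given first. The 8 monocyte and macrophage markers on the array, 3 to 7 of them well above background, had summed signals of 10.2 to 35.1 in LSK and 83.6 to 168 in GMP. Of the 6 tested, 3 were higher and 0 lower in GMP, with a median of 1.83, and their part in these ligand levels was not tested. Ccl6, a mouse chemokine of macrophages and neutrophil precursors, read -1.04, -0.45 and 1.23 (lowest, median and highest) in LSK and 0.98, 1.64 and 3.27 in GMP. The ranges overlapped, since both cell types had their highest values on the diseased arrays, but within each pair GMP was higher by 1.88 to 2.33. The difference was 2.07 ± 0.11 (SE, adjusted p = 1.24e-05, limma). Ccl9, which attracts CCR1-bearing myeloid cells, read 3.17, 4.15 and 4.78 in LSK and 5.04, 5.81 and 6.32 in GMP. Every GMP array lay above every LSK array, by a difference of 1.63 ± 0.17 (SE, adjusted p = 0.000244, limma). Such a separation was seen for 6 of the 31 members and for 25.6% of all genes tested. Among the 6, Ccl24, Ccr7 and Cxcr5 were well above background in a single cell type, and Ccr8 in LSK on the RAEB array alone. For these the separation sets signal largely against background.

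Ccl3, the inflammatory ligand also called MIP-1 alpha, read 0.71, 3.28 and 3.80 in LSK and 3.66, 4.37 and 6.43 in GMP. GMP was higher in every pair, by 0.28 to 1.62 without disease and by 3.55 and 3.77 with it. The overall difference of 1.73 ± 0.52 (SE, adjusted p = 0.0286, limma) was not called without any 1 array of the Tet2 knockdown, MDS/MPN or RAEB pairs, in either cell type, with differences of 1.33 to 1.76 and adjusted p of 0.0574 to 0.068 in limma. Ccl4, its neighbour and close relative (MIP-1 beta), did not share this pattern. It read 4.15, 6.03 and 7.05 in LSK and 3.82, 4.51 and 7.64 in GMP. On the 4 pairs without disease Ccl4 was lower in GMP by 0.89 to 3.07, and on the RAEB pair it was higher by 2.20. Over all pairs it differed by -0.88 ± 0.64 (SE, adjusted p = 0.29, limma), and by -1.49 (adjusted p = 0.0377, limma) without either RAEB array.

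Ccl3, Ccl6 and Ccl9 lie side by side on chromosome 11, between Ccl5 and Ccl4, with no protein-coding gene of the RefSeq annotation between any of the 5. The 3 inner genes were higher in GMP, whereas Ccl5, at one end, was lower. The windows from 250 bases before to 50 bases after the annotated starts of the 3 genes are shown because these neighbours were higher in the same cells. They are from RefSeq on GRCm38.p6, 5′ to 3′ on the minus strand that the genes are read from, at chr11:83578587-83578886 for Ccl9, chr11:83593038-83593337 for Ccl6 and chr11:83649329-83649628 for Ccl3. Capitals mark letters that match a searched motif on either strand.
Ccl9: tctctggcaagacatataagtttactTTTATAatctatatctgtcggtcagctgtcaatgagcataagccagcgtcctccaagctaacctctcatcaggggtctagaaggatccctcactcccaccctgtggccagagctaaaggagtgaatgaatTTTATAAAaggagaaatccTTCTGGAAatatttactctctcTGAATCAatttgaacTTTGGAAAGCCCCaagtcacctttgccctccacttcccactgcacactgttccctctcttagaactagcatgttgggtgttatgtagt
Ccl6: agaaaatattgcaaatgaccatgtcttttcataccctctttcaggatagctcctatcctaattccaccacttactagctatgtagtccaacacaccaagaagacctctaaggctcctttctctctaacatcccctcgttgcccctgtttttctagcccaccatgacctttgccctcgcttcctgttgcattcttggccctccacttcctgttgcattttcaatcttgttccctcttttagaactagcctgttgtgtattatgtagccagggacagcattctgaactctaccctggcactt
Ccl3: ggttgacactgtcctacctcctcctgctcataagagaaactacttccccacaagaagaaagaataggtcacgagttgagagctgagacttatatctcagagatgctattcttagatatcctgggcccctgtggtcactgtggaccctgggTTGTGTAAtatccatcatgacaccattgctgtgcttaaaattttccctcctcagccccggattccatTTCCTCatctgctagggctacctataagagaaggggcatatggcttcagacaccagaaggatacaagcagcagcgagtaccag

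The motifs searched on both strands were TGANTCA (the AP-1 letters), TTNNGNAA (C/EBP), GAGGAA (ETS), TATAAA (the TATA box) and the NF-kB consensus. The Ccl9 window held AP-1 letters at -53 from the start, C/EBP letters at -75 and -38, TATA letters at -224, -94 and -92, of which the last pair overlap on opposite strands, and the NF-kB consensus at -35, which overlaps the nearer C/EBP match. The Ccl3 window held C/EBP letters at -100 and ETS letters at -33. The Ccl6 window held none of the 5. Among all 32851 promoter windows of this length, 7.8% held the AP-1 letters, 40.7% C/EBP, 28.3% ETS, 13.6% TATA and 4.5% the NF-kB consensus. Windows existed for 35 of the 49 members, 39 windows in all, of which 7 held AP-1, 17 C/EBP, 14 ETS, 12 TATA and 8 NF-kB letters. A match is a run of letters and not a measured binding site.

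Ccl2, the main attractant of monocytes (MCP-1), read -1.79, -0.87 and 0.56 in LSK and 0.43, 1.5 and 5.18 in GMP. It was higher in GMP in all 6 pairs, by 1.41 to 2.22 without disease, by 3.67 with MDS/MPN and by 6.02 with RAEB. The difference was 2.82 ± 0.58 (SE, adjusted p = 0.00611, limma) and 2.18 (adjusted p = 0.00194, limma) when either RAEB array was left out. Ccl24, an eosinophil attractant (eotaxin-2), was not well above background on any LSK array and read -2.82, -2.05 and -0.97 in GMP. It was at least 5.07-fold higher in GMP, taking the lowest signal well above background on each LSK array, or the probe's own signal where higher, as the LSK level; the adjusted p of the fit was 0.000234 in limma. With normexp background correction, which adds an offset, the log2 difference was 1.12, smaller than this bound. Ccl25, the thymus and gut chemokine that CCR9 binds, differed by less, from a median of -1.04 in LSK to 0.01 in GMP (0.89 ± 0.16, SE, adjusted p = 0.00347, limma). A second, dimmer Ccl25 probe differed by only 0.11.

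Ccl5 was the largest ligand difference toward LSK. It encodes RANTES, best known from T and NK cells. Its signal read 1.96, 2.28 and 4.38 in LSK and -2.24, -1.39 and -0.72 in GMP. All 6 LSK arrays lay above all GMP arrays, and the difference was -3.99 ± 0.44 (SE, adjusted p = 0.000302, limma), or -3.28 with normexp. The 8 T and NK markers had a summed signal of 70.5 to 98.4 in LSK and 61.6 to 222 in GMP, with 5 to 7 of them well above background in LSK and 3 or 4 in GMP. Of the 7 tested, 5 were lower in GMP and 1 was higher (Nkg7, 1.35, which is bright and carries much of the sum), with a median of -1.70. Of the lower ones, Cd3d, Cd3g, Gzma and Klrb1c were well above background on LSK arrays alone, so they could hardly be called otherwise. Only Lck among the lower ones was well above background in both cell types. The part of T and NK cells in the Ccl5 level was not tested. Cx3cl1, or fractalkine, a membrane-bound chemokine, read -2.21, -1.73 and -0.17 in LSK and -4.41, -2.65 and -1.83 in GMP, where ranges overlapped (-1.36 ± 0.32, SE, adjusted p = 0.0101, limma). Ccl27a, an attractant of skin-homing T cells, was lower in GMP by 0.83 ± 0.16 (SE, adjusted p = 0.00467, limma). RefSeq lists a near-identical Ccl27b, so this signal may belong to either gene; all 3 Ccl27a probes were lower in GMP, by 0.36 to 0.89.

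Ligands without a called difference in this comparison included the neutrophil attractant Cxcl2, which read -2.44, -0.68 and 1.30 in LSK and -1.84, -0.96 and 0.43 in GMP. Cxcl16, the ligand of CXCR6, had medians of -2.43 and -2.59, and its difference of 0.01 ± 0.13 (SE, limma) was the smallest among the ligands. Ccl17, a ligand of CCR4, had medians of -3.40 and -3.69, and the interferon-induced Cxcl9 medians of -3.53 and -4.13. Ccl19, a ligand of CCR7, had medians of -1.95 and -1.5; its 3 probes differed in sign (0.23, -0.26 and -0.58), and near-identical Ccl19 copies may share its signal. Cxcl12, the marrow retention factor, was well above background on the wild-type and double mutant LSK arrays only. The 6 stromal and endothelial markers, 2 of them well above background on every array, had summed signals of 11.9 to 28.8 in LSK and 26.0 to 36.0 in GMP. Cxcl17 was well above background on the wild-type and MDS/MPN LSK arrays, Cxcl1 on the double mutant GMP array, and Ccl7 and Ccl12 on the RAEB GMP array.

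**Figure D2:**
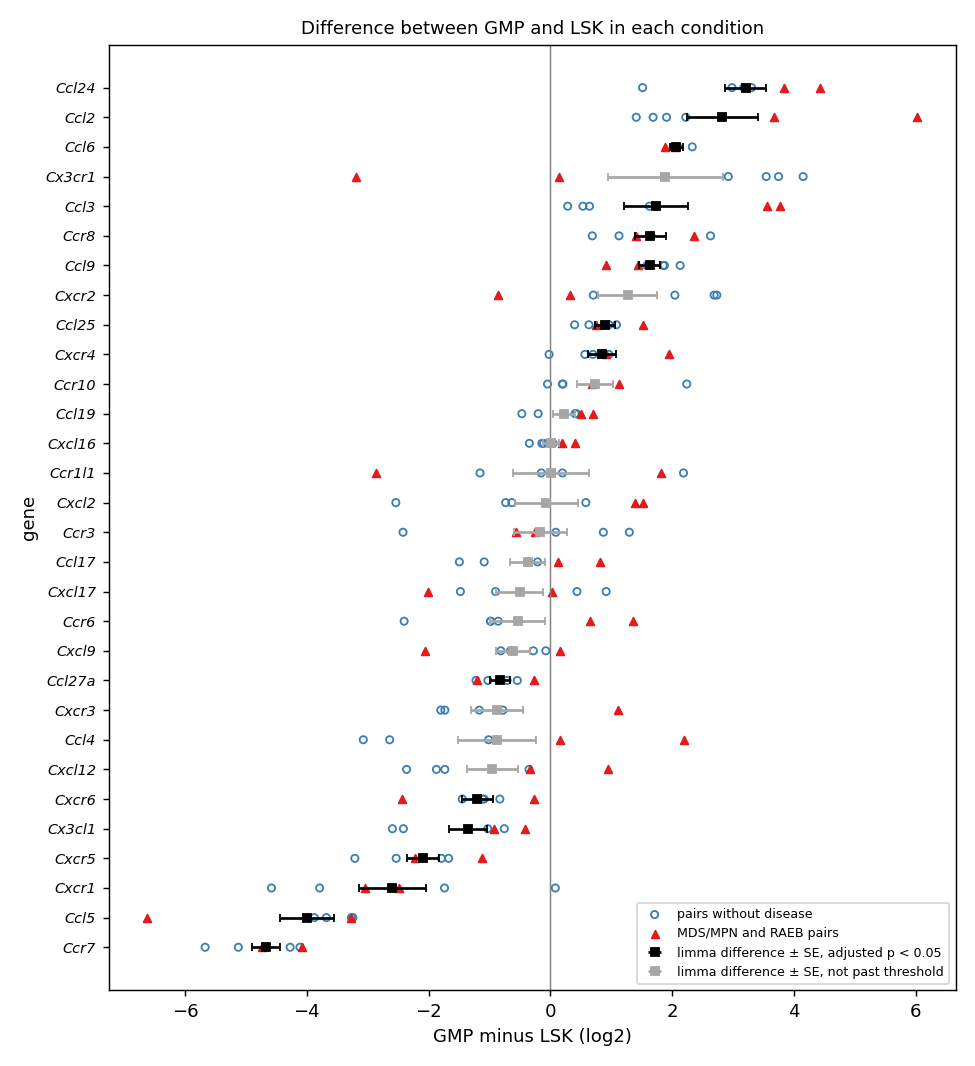
GMP minus LSK log2 difference of tested members: blue circles are the 4 pairs without disease, red triangles the MDS/MPN and RAEB pairs, and squares the limma difference with its SE, black where the adjusted p is under 0.05. Ccr7 and Ccl5 lie far to the left in all pairs, Ccl24 and Ccl2 to the right, and the red triangles of Cx3cr1 lie apart from its blue circles.

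Among the receptors Ccr7 differed most. CCR7 guides lymphocytes and dendritic cells to lymph nodes and binds CCL19 and CCL21. Its signal read -0.77, -0.27 and 0.49 in LSK and was not well above background on any GMP array, so it was at least 13.7-fold higher in LSK by the same bound (adjusted p = 9.37e-06, limma). With normexp the log2 difference was -1.72, again smaller than the bound. The 6 dendritic cell markers had summed signals of 279 to 422 in LSK and 215 to 360 in GMP, carried mainly by Siglech, which averaged 8.14 in both cell types. The other 5 were all lower in GMP, and the median over the 6 was -3.67. Their part in the Ccr7 level was not tested. Cxcr5, which guides B cells to follicles, was dim: it was well above background on 3 LSK arrays (Tet2 knockdown, Ezh2-null and MDS/MPN) and no GMP array, and was lower in GMP by 2.09 ± 0.26 (SE, adjusted p = 0.000526, limma), with no bound on the fold above 1. Summed signals of the 5 B cell markers, of which 1 to 3 were well above background, were 11.8 to 16.6 in LSK and 16.8 to 25.7 in GMP.

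Cxcr1 and Cxcr2, neighbours on chromosome 1 and both receptors for neutrophil attractants, ran in opposite directions. Cxcr1 was well above background on 4 of 6 LSK arrays (all but Tet2 knockdown and the double mutant) and 0 GMP arrays. Its LSK values were -6.44, -3.30 and -1.90, the lowest on the double mutant, and it was at least 1.33-fold higher in LSK (adjusted p = 0.00661, limma). Cxcr2 read -3.25, -2.20 and -0.92 in LSK and -1.77, -0.80 and -0.50 in GMP. It was higher in GMP in 5 of 6 pairs and lower by 0.85 in the MDS/MPN pair. The overall difference of 1.27 ± 0.48 (SE, adjusted p = 0.0645, limma) missed the threshold, and was 1.70 (adjusted p = 0.0172, limma) without either MDS/MPN array.

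Cxcr4, the receptor for CXCL12, read 1.17, 2.09 and 2.58 in LSK and 2.13, 2.58 and 4.22 in GMP. Its difference of 0.84 ± 0.23 (SE, adjusted p = 0.0211, limma) was not called without any 1 array of the wild-type or MDS/MPN pairs (0.82 to 0.83, adjusted p of 0.0516 to 0.0584, limma). Ccr8, a receptor of T cells, was well above background on all GMP arrays (-3.55, -3.21 and -2.38) and on the RAEB LSK array alone (LSK -6.03, -4.57 and -4.09), higher in GMP by 1.64 ± 0.26 (SE, adjusted p = 0.00178, limma). Since 5 of the LSK arrays give only background, the size is uncertain: it was 0.59 with normexp and 0.94 as the mean over both probes. A second Ccr8 probe was well above background on 0 arrays. Cxcr6, the receptor for CXCL16, was measured on all LSK arrays and on 2 GMP arrays, lower in GMP by 1.20 ± 0.26 on the log2 scale (SE, adjusted p = 0.00725, limma). With normexp the differences of Cx3cl1 (-0.50), Cxcr1 (-0.29), Cxcr5 (-0.10) and Cxcr6 (-0.081) were not called.

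Cxcr3, a T cell receptor for CXCL9, was well above background on all 12 arrays. It read -1.88 to -1.56 on the 5 LSK arrays kept and -3.61, -2.64 and -0.61 in GMP; its spot on the MDS/MPN LSK array was marked as an outlier and left out. The difference was -0.87 ± 0.42 (SE, adjusted p = 0.136, limma), and -1.37 (adjusted p = 0.00371, limma) without either RAEB array. The remaining receptors were measured on fewer arrays. Ccr3, the eosinophil receptor for CCL24, was well above background on 3 LSK arrays (wild-type, MDS/MPN and RAEB) and 0 GMP arrays, with medians of -4.16 and -4.19. Ccr1l1, a relative of Ccr1, was well above background on 4 LSK arrays and on the double mutant and RAEB GMP arrays, and spanned -6.24 to -1.22 in GMP. Ccr1 itself was well above background on the double mutant GMP array only, Ccr10 on the wild-type and Tet2 knockdown GMP arrays, and Ccr6 on the Ezh2-null LSK and RAEB GMP arrays.

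Cx3cr1, the fractalkine receptor that marks monocytes and their progenitors, split by disease. On the 4 pairs without disease it read -1.76 to -0.45 in LSK and 2.39 to 3.09 in GMP, and every pair differed by 2.92 to 4.15. On the MDS/MPN pair it read 1.40 in LSK and 1.54 in GMP, and on the RAEB pair 0.95 and -2.25. Over all 6 pairs the difference was 1.88 ± 0.94 (SE, adjusted p = 0.14, limma). Without either RAEB array it was 2.90 (adjusted p = 0.00593, limma). Its second probe gave 1.73 over the same pairs. Cx3cr1 lies next to Ccr8 on chromosome 9.

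The 4 pairs without disease, all on 1 slide, gave the same comparison free of slide and disease. Here 22 of 31 members were called, 10 higher and 12 lower in GMP, beside 52.5% of all genes. Cx3cr1 (3.59 ± 0.21, SE, adjusted p = 0.000179), Cxcr2 (2.04 ± 0.36, SE, adjusted p = 0.00599), Ccl4 (-1.90 ± 0.42, SE, adjusted p = 0.0129), Cxcl12 (-1.58 ± 0.33, SE, adjusted p = 0.0108), Cxcr3 (-1.37 ± 0.20, SE, adjusted p = 0.00325), Ccr6 (-1.31 ± 0.29, SE, adjusted p = 0.0125) and Ccl17 (-0.79 ± 0.24, SE, adjusted p = 0.038) passed in limma in this subset. For Cxcl12 and Ccr6 no GMP array of the subset was well above background. The same held for Ccr7, Cxcr1 and Cxcr5, also called lower here. No p-value of these members is separate evidence of a difference. Ccr6 was well above background in the subset on the Ezh2-null LSK array alone, so nearly all of its values are background. With either RAEB array left out of the 12, the Cxcl12 difference was -1.33 (adjusted p = 0.0165, limma). Cxcl12 entered the tests only through the wild-type and double mutant LSK arrays. Both of its results thus set LSK against background in GMP, and neither p-value is separate evidence of a difference. In the double mutant pair it read -3.54 in LSK and -3.90 in GMP.

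Genes outside the family that carry or read chemokine signals were compared in the same way. Of 32 genes of receptor signalling, 29 were tested, 11 were higher and 4 lower in GMP, with a median of 0.15. The higher ones included the G protein regulator Rgs10 (1.27), the GTPase Rac1 (0.95), the PI3-kinase subunit Pik3r5 (0.86) and the G protein alpha subunit Gnai2 (0.70). The lower ones were Rgs1 (-2.21), the receptor kinase Grk5 (-0.98), the tyrosine kinase Ptk2b (-0.76) and Rgs18 (-0.74). Of 12 relatives (atypical receptors, platelet chemokines and processing enzymes) 8 were tested, 0 were higher and 1 was lower, the scavenger receptor Ackr1 (-1.18), with a median of -0.42. Of 15 NF-kB feedback genes, all tested, 1 was higher (Tnfaip2, 1.97) and 5 lower, among them Relb (-2.14), Icam1 (-1.65), Nfkbie (-1.33) and Bcl3 (-0.77), with a median of -0.38. Over all genes tested 25.7% were called higher and 18.9% lower in GMP, and the median was 0.16.

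The diseased double mutant was compared with the double mutant without disease to ask what MDS/MPN and RAEB cells share. No member was called in limma (6 at an unadjusted p under 0.05), beside 0.0073% of all genes, which is 1 gene, and 1882 at an unadjusted p under 0.05. With 2 arrays against 1 per cell type the fit had little power: on simulated data it recovered 11% of genes changed by 1 on the log2 scale and 68% of those changed by 2. Ccl6 had the smallest p. It read -0.59 on the double mutant LSK array, 1.23 with MDS/MPN and 0.74 with RAEB, and 1.5, 3.27 and 2.62 on the GMP arrays in the same order. In both cell types the diseased arrays were the highest of the 6, by a difference of 1.51 ± 0.17 (SE, adjusted p = 0.134, limma), which became 1.45 (adjusted p = 0.0407, limma) without the RAEB LSK array. Markers of several cell types ran the same way in this comparison: all 7 GMP, 7 neutrophil, 6 monocyte and macrophage, 6 mast cell, basophil and eosinophil and 5 megakaryocyte markers tested had positive differences, with medians of 1.32, 2.68, 0.83, 1.98 and 1.85. The summed GMP markers in LSK were 460 in the double mutant, 1328 with MDS/MPN and 947 with RAEB. Their part in the Ccl6 values was not tested.

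The other largest positive differences were those of Ccl2 (2.0 ± 0.87, SE, adjusted p = 0.366, limma), Cxcr1 (1.72, adjusted p = 0.394) and Cxcr3 (0.94, adjusted p = 0.536). The largest negative ones were those of Cxcl12 (-2.0, adjusted p = 0.276, limma), Ccr1l1 (-1.41, adjusted p = 0.526), Cx3cl1 (-1.05, adjusted p = 0.375) and Ccl24 (-0.93, adjusted p = 0.447). Several rest on background: among these arrays Cxcl12 was well above it on the double mutant LSK array alone, Cxcr1 on the diseased LSK arrays alone and Ccl24 on the GMP arrays alone, so their sizes are not exact. Set against all 8 arrays without disease, 5 members passed, beside 13.4% of all genes: Ccl6 (1.59), Cxcr4 (1.05) and Cxcl16 (0.80) were higher and Cxcr6 (-1.05) and Ccl27a (-0.82) lower. For Cxcr4 the diseased values were 2.58 and 2.27 in LSK and 3.5 and 4.22 in GMP, the highest of each cell type. For Cxcl16 they were -2.17 and -1.98 in LSK and -1.99 and -1.57 in GMP, again the highest of each. RAEB against MDS/MPN gave 0 members in limma (3 at an unadjusted p under 0.05) beside 0% of all genes (364 at an unadjusted p under 0.05). The smallest p was that of Ccl6 (-0.58). The largest differences upward were those of Ccl4 (2.32), Ccr6 (2.19), Ccl3 (2.05) and Ccr1l1 (1.46), and downward those of Cx3cr1 (-2.12), Ccl24 (-1.56) and Cxcl17 (-1.03), all with an adjusted p of 0.974 in limma. Among the diseased arrays Ccr6 was well above background on the RAEB GMP array alone, Cxcl17 on the MDS/MPN LSK array alone and Ccl24 on the GMP arrays alone.

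**Figure D3:**
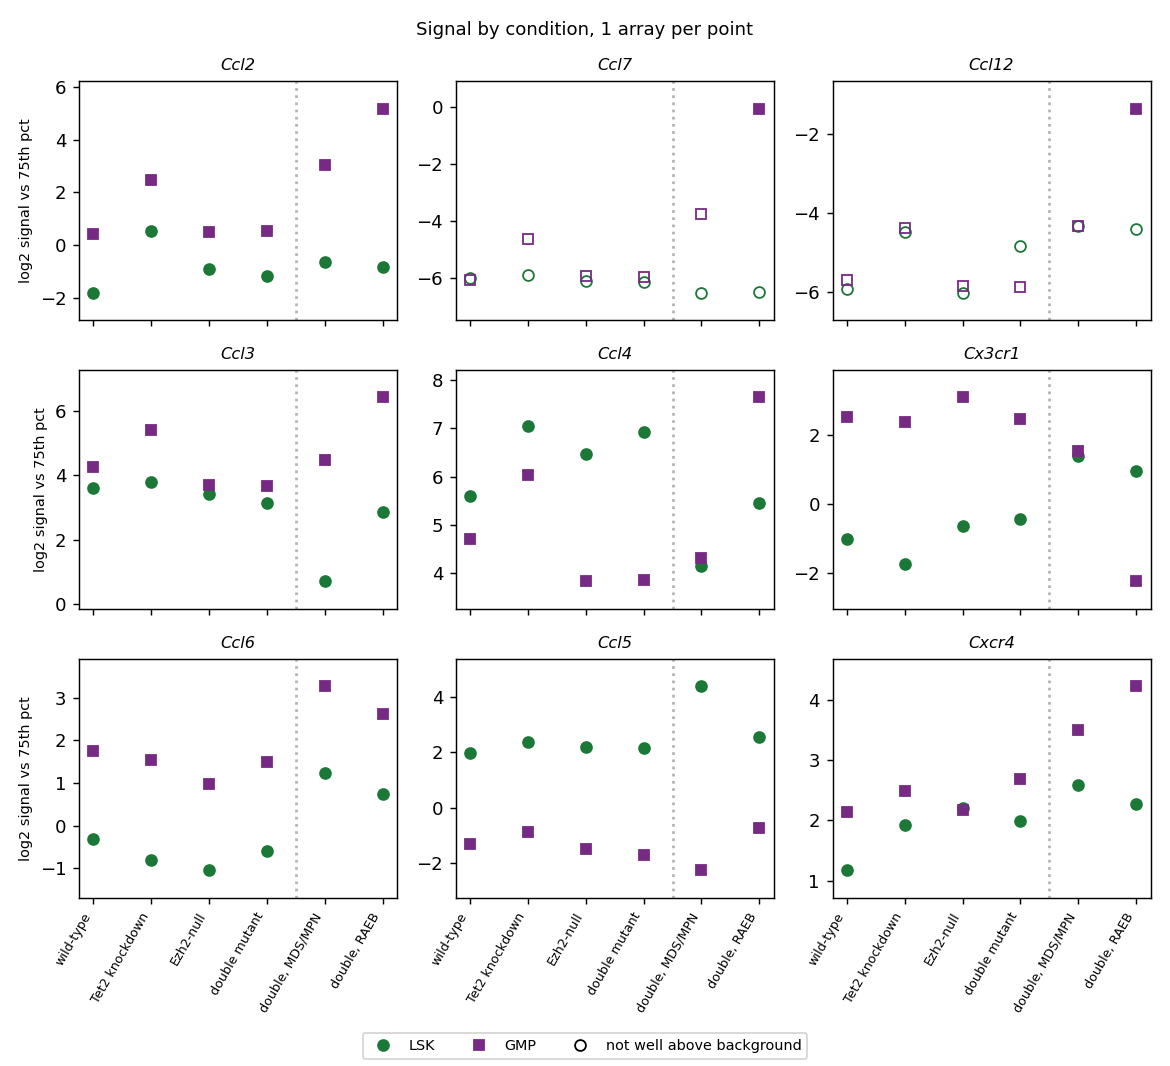
Log2 signal of 9 members by condition, 1 array per point, LSK as green circles and GMP as purple squares, with open symbols where the probe was not well above background and a dotted line before the diseased conditions. Ccl2, Ccl7 and Ccl12 are highest on the GMP array with RAEB, where Cx3cr1 is lowest, and Ccl5 is highest on the LSK array with MDS/MPN.

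Single diseased arrays were set against the double mutant of their cell type, counting differences of at least 2-fold, with no test. On the MDS/MPN LSK array 8 of the 31 members were higher and 5 lower, beside 4.76% and 6.01% of all genes. On the RAEB LSK array 5 were higher and 5 lower, beside 4.12% and 6.04%. On the MDS/MPN GMP array 3 were higher and 4 lower, beside 4.68% and 4.91%. On the RAEB GMP array 8 were higher and 3 lower, beside 8.25% and 9.16%. The members tested were dimmer than genes at large, with a median of -2.29 against 0.91 on the MDS/MPN LSK array and -2.25 against 0.83 on the RAEB GMP array. These shares therefore do not compare genes of equal brightness, and an excess among the members cannot be read from them.

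The monocyte attractants were highest on the RAEB GMP array. Ccl2 read 5.18 there, 3.05 with MDS/MPN and 0.53 in the double mutant. Ccl7 (MCP-3) read -0.05 and Ccl12 (MCP-5) -1.36 on that array, and neither was well above background on any of the 11 others. Ccl2, Ccl7 and Ccl12 belong to 1 cluster on chromosome 11, in which Ccl11, not well above background on any array, is the protein-coding gene between Ccl7 and Ccl12. Ccl3 read 6.43 and Ccl4 7.64 on the RAEB GMP array, the highest of the 12 arrays for both. Cx3cr1, at -2.25, was the lowest of all 12. The 8 neutrophil markers on the array had a summed signal of 639 there against 23.9 to 42.2 in GMP without disease. S100a8 (8.50) and S100a9 (8.08) carried nearly all of it. Ngp (0.24), Mmp8 (0.86) and Retnlg (-0.45) also lay above every GMP array without disease. Camp (1.21) and Ltf (-2.56) lay within their ranges without disease, and Mmp9 was not well above background on any array. The 8 monocyte and macrophage markers summed to 168 against 83.6 to 101, and the 5 megakaryocyte markers to 31.0 against 1.91 to 3.25. The part of such cells in these values was not tested.

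On the MDS/MPN LSK array Ccl5 read 4.38 against 2.17 in the double mutant, while Ccl3 read 0.71 against 3.13 and Ccl4 4.15 against 6.92. On that array neutrophil markers summed to 334, against 10.3 to 90.0 in LSK without disease and 14.7 with RAEB. The 8 T and NK markers summed to 72.2, within the LSK range without disease of 71.0 to 98.4, and Nkg7 (5.81) carried most of it. Cd3e (1.36) and Lck (3.70) lay below every LSK array without disease, as did the dim Cd3d, Cd3g and Cd8a. Nkg7 and Gzma (-3.62) lay within their ranges without disease and Klrb1c (-1.77) above its range. On the MDS/MPN GMP array Ccl27a read -0.07 against 1.26 and Cxcr6 -5.51 against -3.71. Mast cell, basophil and eosinophil markers summed to 1342 there and 388 with RAEB, against 50.2 to 88.4 in GMP without disease. Prg2 carried most of both diseased sums, at 10.13 and 8.51 against 3.77 to 5.65 without disease. On the RAEB GMP array Epx (3.00) was also above every GMP array without disease, and Prss34 (2.17) was within their range. Mcpt8 (2.05), Cpa3 (2.67) and Fcer1a (-0.15) lay below all of them there, as did Cpa3 with MDS/MPN (3.19). In bulk RNA more cells of a type and more RNA per cell cannot be told apart.

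Whether the difference between GMP and LSK changed with disease was tested by setting the 2 diseased pairs against the 4 others. It did for 5 of 31 members, 4 up and 1 down, beside 7.63% of all genes. The median change was 0.37 over the members and 0.05 over all genes. The GMP excess of Ccl2 went from 1.80 to 4.85 (3.04 ± 0.61, SE, adjusted p = 0.0382, limma) and that of Ccl3 from 0.77 to 3.66 (2.89 ± 0.39, SE, adjusted p = 0.0257, limma). The Cx3cr1 difference turned from 3.59 to -1.53 (-5.12 ± 0.86, SE, adjusted p = 0.0303, limma). Ccr6 changed by 2.31 ± 0.49 (SE, adjusted p = 0.0414, limma), although it was well above background on only 1 of the 4 diseased arrays, and the 0.84 by which a dark probe such as Ccl20 differed is part of such a value. Cxcr3 changed by 2.49 ± 0.47 (SE, adjusted p = 0.0392, limma) from the RAEB pair alone; with its outlier spot kept, the change was 0.73 (adjusted p = 0.627, limma).

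These calls rested on few arrays. Every array but those of the MDS/MPN pair was needed for Ccl2 (1.87 to 3.18 without it, adjusted p of 0.0734 to 0.105, limma) and Cx3cr1 (-5.34 to -3.45, adjusted p of 0.0592 to 0.0752, limma), and leaving either MDS/MPN array out gave 4.21 and -6.79. Ccl3 was not called without an array of the wild-type, Ezh2-null, double mutant or RAEB pairs (2.73 to 3.00, adjusted p of 0.0553 to 0.104, limma), Cxcr3 without any array free of disease (2.34 to 2.68, adjusted p of 0.0593 to 0.0854, limma), and Ccr6 without any of the 12 (1.94 to 2.66, adjusted p of 0.0546 to 0.182, limma). Within the RAEB pair Ccl4 was called as well (4.10, adjusted p = 0.0496, limma), and within the MDS/MPN pair only Ccl5 was (-3.10, adjusted p = 0.0486, limma). In these tests 1 pair stands against 4, so the 4 give the spread and the lone pair is assumed to vary like them. Of the markers tested, 4 of 7 GMP and 2 of 6 monocyte and macrophage genes changed downward and 4 of 5 megakaryocyte genes upward in the same comparison, and their part in these changes was not tested. The diseased LSK and GMP arrays differ in slide and in the sex of their source, so neither can be told apart from this change.

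The surrounding lists had called genes in this comparison too. Of the 8 relatives 3 changed upward and 0 downward (median 0.28): the platelet chemokines Ppbp and Pf4 (4.26), and Ccrl2 (2.29), a non-signalling receptor that binds chemerin. Ppbp read -6.07 to -5.90 on the GMP arrays without disease, where it was not well above background, and 0.12 and -0.20 on the diseased ones, so its change has no exact size. Of the 29 signalling genes Rgs1 (3.35) and Rgs2 (2.27) changed upward and 0 downward (median 0.17), and of the 15 NF-kB feedback genes Il1b (5.17), Ier3 (2.86) and Tnfaip3 (2.84) changed upward and 0 downward (median 1.08). Over all genes tested 7.63% were called in this comparison, in either direction, and the median was 0.05. In the disease, RAEB against MDS/MPN, Ezh2, Tet2 and Ezh2 by cell type comparisons, these 3 lists had 0 genes past the threshold in limma.

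The genotypes were compared within the 8 arrays without disease, 4 against 4, to ask for effects of Ezh2 loss and of Tet2 knockdown shared by both cell types. Ezh2 loss gave 0 members in limma (6 at an unadjusted p under 0.05), beside 0.19% of all genes. Ccl9 had the smallest p: it read 4.47 and 3.83 on the LSK arrays with Ezh2 and 3.17 and 3.61 on those without, and 6.32 and 5.96 against 5.04 and 5.19 in GMP. The values with Ezh2 lay above those without in each cell type, and the difference was -0.89 ± 0.19 (SE, adjusted p = 0.199, limma). The other largest negative differences were those of Ccr10 (-1.55, adjusted p = 0.358, limma), Cxcl17 (-0.97, adjusted p = 0.571) and Cxcr1 (-0.87, adjusted p = 0.885). Ccr10 was well above background on the wild-type and Tet2 knockdown GMP arrays alone, and so was tested only through arrays with Ezh2, Cxcl17 here on the wild-type LSK array alone and Cxcr1 on the wild-type and Ezh2-null LSK arrays alone, so these sizes are not exact. The largest positive ones were those of Ccr1l1 (0.95, adjusted p = 0.949, limma), Cx3cl1 (0.62, adjusted p = 0.799), Ccl17 (0.58, adjusted p = 0.576) and Cx3cr1 (0.58, adjusted p = 0.462).

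Tet2 knockdown gave 0 members in limma (3 at an unadjusted p under 0.05), beside 0% of all genes. Cxcl9, with the smallest p, differed by 0.62 ± 0.16 (SE, adjusted p = 0.78, limma). Cx3cl1 (1.14), Ccr1l1 (0.98) and Ccl4 (0.82) had the largest positive differences beside Ccl2, and Cxcr1 (-1.34), Ccl25 (-0.50), Cx3cr1 (-0.33) and Ccr7 (-0.25) the largest negative ones, with adjusted p of 0.818 to 0.871 in limma. Cxcr1 was well above background here on 2 LSK arrays, both without the knockdown. Ccl2 was highest on the Tet2 knockdown array among the arrays without disease in each cell type, 0.56 in LSK and 2.46 in GMP, but read -1.15 and 0.53 on the double mutant arrays, and the difference was 1.04 ± 0.47 (SE, adjusted p = 0.818, limma). The Ezh2 effect in GMP minus that in LSK was called for 0 members in limma (4 at an unadjusted p under 0.05), beside 0% of all genes. Ccl4 (-1.90, adjusted p = 0.529, limma), Cxcl2 (-1.61, adjusted p = 1) and Ccr7 (-1.20, adjusted p = 0.379) were among the largest negative values, and Ccr1l1 (1.84, adjusted p = 1), Cx3cl1 (1.61, adjusted p = 0.672), Cxcr1 (1.31, adjusted p = 1) and Cxcl12 (1.07, adjusted p = 1) the largest positive ones. Ccr7, Cxcr1 and Cxcl12 were not well above background on any GMP array.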

How the data were processed

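RNA of 12 samples was hybridised to 1 array each, with 1 array for each cell type and condition. Scanning used Feature Extraction 10.7.1.1, per the file headers. The signal used from the deposited files is an intensity from which the authors' software had removed background, not logged; the deposited flags (well above background, outlier, saturated) are a unit recorded as other. From these, spots marked as outliers were left out, spots of a probe were averaged, log2 values were taken and each array's 75th percentile was subtracted. Probes were named through their RefSeq accessions and a RefSeq gene table of GRCm38.p6; the brightest probe stood for a gene. Genes well above background on at least 2 arrays entered the tests, run in R 4.3.3 with limma 3.58.1 (two-sided, Benjamini-Hochberg over all 13705 genes, threshold 0.05). Cell type was tested with condition as a block, disease with cell type as a term, and genotypes on the 8 arrays without disease with the other factors as terms.

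The script was tested on simulated data: for GMP against LSK it recovered 52% of genes changed by 1 and 89% of those changed by 2 on the log2 scale, of 200 changed among 13705. Other settings were quantile normalization, normexp background correction with an offset of 50, other filters on dim probes, other limma options, the mean over probes, the authors' value table, slide as a term and leaving out each array; keeping outlier spots, leaving out both RAEB arrays and the single diseased pairs were added after seeing the data. The number of arrays limits the precision. Members and lists were chosen with earlier results of these data known. A member is counted but not reported here by name or value. Named in the text were the other members well above background on at least 1 array, those past the threshold in each comparison or otherwise up to 4 with the largest differences in each direction and the one with the smallest p, and up to 4 genes a list in each direction. Protein sequences were not used here.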

Additional observations from a re-analysis of the deposited data

Results flagged for a closer look

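Among 70 groups of 6 or 5 arrays of 1 cell type, 15 held an array far from the others by Dixon's criterion. Chance alone gives about 1 in 20, but the 15 cannot be read against that, since Ccl12, Ccr1 and Cxcl1 were looked at only because of the single array on which each was well above background, the far one. In LSK the far arrays were Ccl19 on Tet2 knockdown (-0.76), Ccl25 (-0.17) and Ccr8 (-6.03, not well above background) on Ezh2-null, and Ccl3 (0.71), Ccl5 (4.38) and Ccr1 (-4.39, not well above background) on MDS/MPN. In GMP they were Ccl12 (-1.36), Ccr6 (-3.17) and Cx3cr1 (-2.25) on RAEB, Ccl27a (-0.07) and Cxcr6 (-5.51, not well above background) on MDS/MPN, Ccr1 (-3.18), Cxcl1 (-3.61) and Cxcl12 (-3.90, not well above background) on the double mutant, and Ccr3 (-6.02, not well above background) on wild-type.

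The change of the GMP minus LSK difference with disease passed the threshold for Ccl2 (3.04), Ccl3 (2.89), Ccr6 (2.31), Cxcr3 (2.49) and Cx3cr1 (-5.12), all on arrays whose slides differ in the same way.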

How the results depend on the processing

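No member's difference reversed its sign among the members called in the comparisons of GMP with LSK and of disease by cell type. The 16 members that differed between GMP and LSK became 13 under quantile normalization (6 higher, 7 lower) and 12 under normexp (9 higher, 3 lower), where Cx3cl1, Cxcr1, Cxcr5 and Cxcr6 were not called, and 14 to 18 without single arrays. Ccl2, Ccl24, Ccl25, Ccl27a, Ccl5, Ccl6, Ccl9, Ccr7 and Ccr8 were called in all 23 alternatives, though under normexp the sizes shrank for Ccr7 (from -4.67 to -1.72), Ccl24 (from 3.20 to 1.12), Ccr8 (from 1.64 to 0.59) and Ccl5 (from -3.99 to -3.28), the first pair to below the bounds given. Quantile normalization moved the median of all genes from 0.16 to 0.01 and the split of all called genes from 3526 higher and 2584 lower to 2676 and 3104. For the change with disease, 5 members became 2 under quantile normalization, 13 under normexp, 15 with no filter on dim probes, 1 within the MDS/MPN pair and 0 to 5 without single arrays; with no filter the median of all genes was 0.33. Diseased against other double mutant gave 5 members against all 8 arrays without disease and 0 to 1 without single arrays. RAEB against MDS/MPN, Ezh2 loss, Tet2 knockdown and the Ezh2 effect by cell type gave 0 members under every setting run. The counts over all genes moved as well. For GMP against LSK under normexp they were 3244 higher and 1993 lower of 13705. For the change with disease they were 586 upward and 460 downward in the main setting and 457 and 554 under quantile normalization. Under normexp they were 2299 and 1239, and with no filter 4428 and 921 of 20284. The counts of members cannot be read apart from these. The cause of these shifts was not tested. No paired analysis by replicate number was possible because each cell type and condition has 1 array. Probes at background kept 18 of the 49 members out of the tests. They also limit what several tested members can show, among them Cxcl12, Ccr6, Cxcr5 and Cxcr1.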
